A study of Mus musculus with 4 samples.

Results

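The tight junction and epithelial polarity genes measured here were the claudins, taken as every gene of the platform annotation whose symbol is Cldn followed by digits alone, and 16 further genes of the junction and of apical-basal polarity. There were 23 claudins, so 39 of 19505 named genes were followed, each by 1 probe set. Members were chosen by symbol and function, with earlier results of these data known. Epcam, Rab25, St14 and Cldn8 lay under the array median in NHRI-HN1 and its parent M1-2 and well above it in NHRI-HN2 and M2-3. F11r lay under the array median in NHRI-HN1 alone. Nearly all claudins were under the median in all 4 lines, and the scaffold gene Tjp1 was far above it in all 4.

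Tight junctions seal the space between neighboring epithelial cells near their apical side. Claudins and MARVEL proteins such as occludin form the strands in the membrane, and junctional adhesion molecules lie beside them. Scaffolds of the plaque, above all the zonula occludens proteins, tie the strands to actin. The Par, Crumbs and Scribble complexes set the apical and basolateral domains and thereby the place of the junction. In stratified squamous epithelia such as that of the tongue, tight junctions lie mainly in the upper, differentiating layers, and loss of junction genes is a known part of epithelial–mesenchymal transition (EMT).

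Total RNA of 4 mouse oral cancer cell lines from C57BL/6 mice was hybridized to Affymetrix Mouse Clariom S arrays, with a single array per line. The sphere-derived lines were NHRI-HN1, obtained from M1-2, and NHRI-HN2, obtained from M2-3. The parents M1-2 and M2-3 came from 2 tongue tumors of separate mice given the carcinogen 4-NQO together with arecoline. The study kept its lines in dishes with serum, and its array methods do not state the culture used for RNA. NHRI-HN1 was the line that the study described as tumorigenic in syngeneic mice, and it was set against the mean of M1-2, NHRI-HN2 and M2-3. As a second comparison, NHRI-HN1 and M1-2, the lines of the M1-2 tumor, were set against NHRI-HN2 and M2-3, the lines of the M2-3 tumor. Both used limma with Benjamini-Hochberg adjustment over all named genes, and genes with an adjusted p under 0.05 were taken as called. With no repeat array, the error of the first test starts from the spread among the 3 other lines. That of the second starts from the difference between sphere line and parent within each tumor. Limma then draws each gene's error toward that of genes of similar mean value, so a standard error is not the spread of that gene alone. A p therefore refers to these 4 lines and not to repeat cultures or to the spread among tumors. The 2 lines of a tumor are parent and offspring and are not independent. A line can stand for 1 clone or a mixture of cells. Values are on the deposited scale, taken as log2; the highest values, 19.68 to 19.77, are above what log2 of an ordinary scan can reach, so 1 unit need not be a doubling of RNA. Array medians were 4.53 to 4.75, lower quartiles 3.02 to 3.16 and lowest values 1.48 to 1.6. A value under the median is called dim here. No background level was measured and the values carry no detection call, so dim does not mean absent.

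The label of an oral cancer line was checked against markers. Of 10 epithelial markers, 2 reached the array median in NHRI-HN1, 7 in M1-2 and 8 each in NHRI-HN2 and M2-3, with list means of 3.54, 9.18, 11.69 and 12.19 in this order. E-cadherin (Cdh1) was 3.71 in NHRI-HN1, 14.82 in M1-2, 16.06 in NHRI-HN2 and 16.31 in M2-3. The basal keratin gene Krt5 was 3.09, 4.68, 16.46 and 17.24 in the same order. In M1-2, Krt14, Perp, Dsp and Krt18 were high, at 15.38, 15.34, 12.42 and 10.08. Krt15 and Krt19, at 4.2 and 3.14, were under the median in M1-2, as was Krt5. So the epithelial label was not borne out at the RNA level in NHRI-HN1, and in M1-2 only in part. Skeletal muscle markers moved the other way, with 7 of 8 at or over the median in NHRI-HN1, 3 in M1-2 and 2 each in NHRI-HN2 and M2-3 (list means 10.28, 4.45, 3.69 and 3.48; Myod1 at 3.32 in NHRI-HN1 was the exception). Of 7 measured fibroblast markers, 4, 5, 3 and 1 did so, and none of 8 endothelial and 4 measured immune markers in any line. The part that a change of cell identity or a mixture of cells has in the member values below was not tested.

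In all, 22 of 39 members (56.4%) were dim in all 4 lines, against 41.3% of all named genes. Against the 3 other lines, limma called F11r lower in NHRI-HN1 and no member higher; over all genes, 0.113% were called lower and 0.508% higher. No member was higher in NHRI-HN1 at an unadjusted p under 0.05 either, where 5.88% of all genes were, and 3 of 39 were lower (F11r, Llgl2 and Patj), where 3.42% of all genes were. Between the tumors, 4 of 39 members were called lower in the lines of the M1-2 tumor, against 0.446% of all genes. None was called higher there, against 0.123%. Tjp1, Cldn9 and Cldn24 were higher there at an unadjusted p under 0.05 from limma, or 3 of 39 against 7.05% of all genes. Of these, Cldn9 and Cldn24 were dim in all 4 lines. At the same threshold 8 of 39 were lower, against 9.73% of all genes. The median difference over the members was -0.08 in the first comparison and -0.05 in the second, against -0.01 and 0.03 over all genes.

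**Figure D1:**
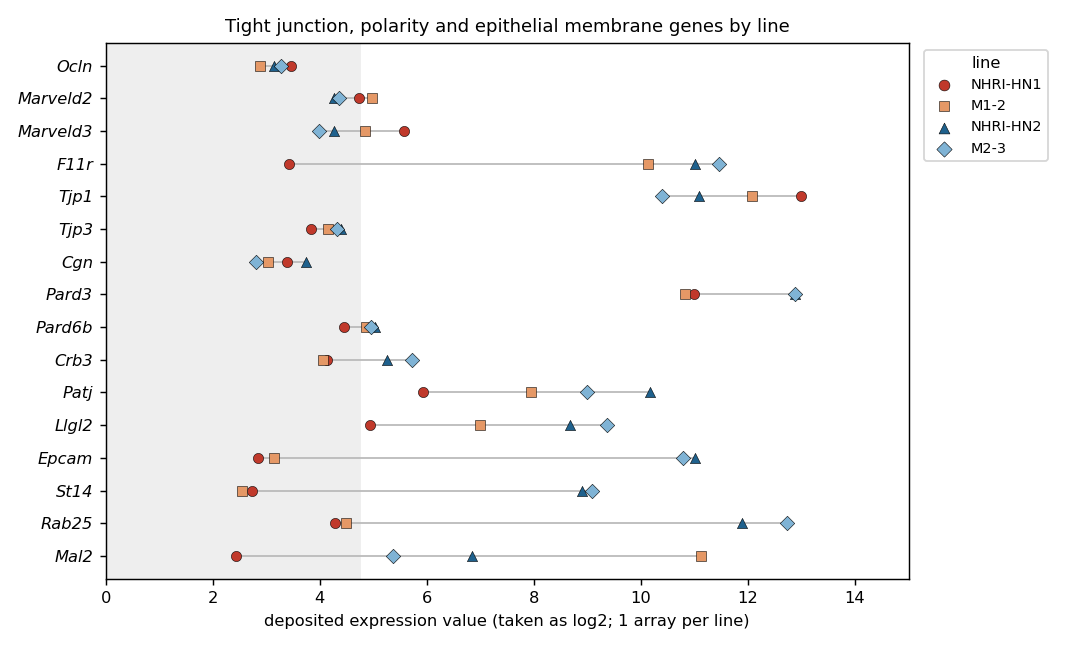
Deposited expression values (x axis, taken as log2 units) of the 16 members other than claudins (y axis), with 1 point for each line and a grey line over their range; the grey band covers values under the highest array median, 4.75. Epcam, St14 and Rab25 split the lines by tumor, F11r sets NHRI-HN1 apart, and Mal2 spreads from 2.43 in NHRI-HN1 to 11.12 in M1-2.

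Promoter windows from RefSeq (GRCm38.p6), 250 bases before to 50 after an annotated start, were found for 31 of the 39 members, in 46 windows. They were searched on both strands for CACCTG, the E2-box that repressors of the Zeb and Snail families bind, and for AACNNGTT, the motif of the grainyhead-like (Grhl) activators of epithelial genes. Every CACCTG is also a match to the general E-box CANNTG, which 71.7% of the member windows and 68.9% of all windows held. CACCTG occurred in 19 of the 46 member windows (41.3%), in 15 members, against 19.7% of 19143 windows of all named genes, and AACNNGTT in 4 (8.7%) against 3.98%. Some windows of a gene overlap each other, so they are not independent. Members with CACCTG included Epcam, Rab25 and F11r, and also Cldn3, Cldn4, Cldn6, Cldn7, Cldn14, Ocln and Tjp3, which were dim in all lines. Whether the motif goes with the values was not tested. A match is a run of letters and not evidence of binding. In the sequences below, matches to either motif are in capitals, each sequence is read 5′ to 3′ along the gene, and positions are those of the first base of a match relative to the start site.

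**Figure D2:**
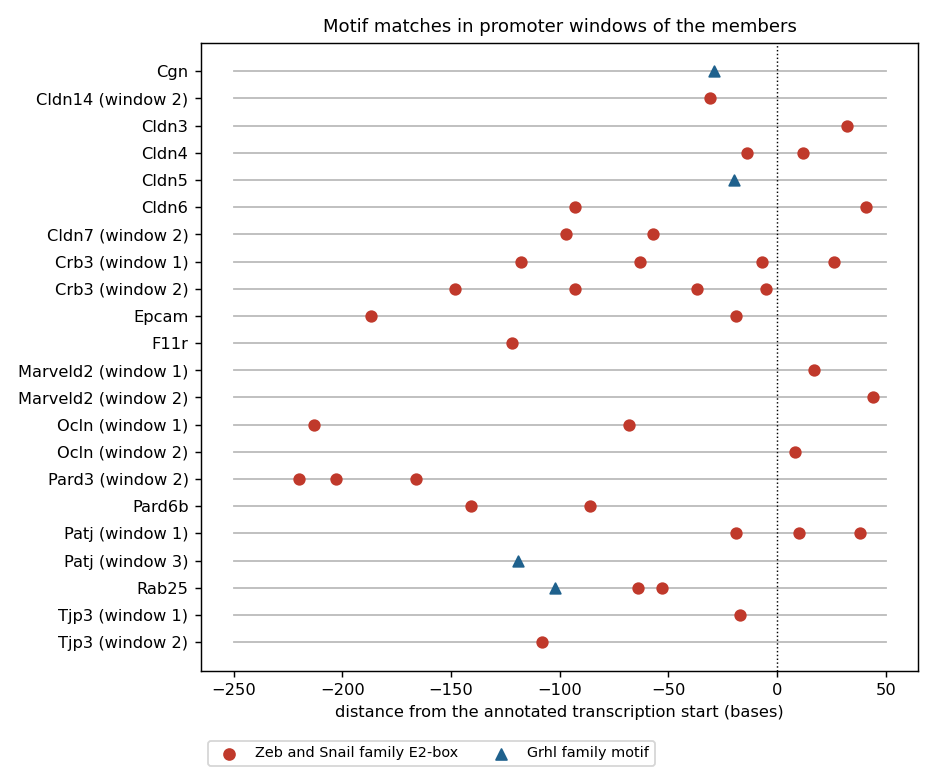
Positions of matches to the Zeb and Snail family E2-box (red circles) and to the Grhl family motif (blue triangles) in the member promoter windows that hold one (y axis), by distance from the annotated start in bases (x axis). Crb3 holds 4 E2-box matches in each of 2 overlapping windows, and Rab25 holds both motifs.

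Of 6 measured genes for factors that read these motifs, limma called Grhl2 alone, and between the tumors only. Grhl2 was 2.40 in NHRI-HN1, 2.52 in M1-2, 9.55 in NHRI-HN2 and 10.42 in M2-3. In the lines of the M1-2 tumor it was lower by 7.52 (± 0.53 standard error, limma adjusted p = 0.024). Zeb1 was 13.37 in NHRI-HN1, 11.95 in M1-2, 7.65 in NHRI-HN2 and 4.08 in M2-3, so it was high in the lines where Grhl2 was dim, and its difference of 6.79 between the tumors did not pass (limma, adjusted p = 0.14). The relatives of Grhl2 did not split in this way, with Grhl1 at 4.47, 3.75, 5.05 and 5.90 and Grhl3 at 3.51, 3.96, 3.87 and 5.94 in the same order of lines. Snai2 was far above the array median in every line, at 15.09, 13.90, 16.40 and 16.27 in the same order, Snai1 was 5.38, 5.32, 3.91 and 4.55, and Zeb2 was not measured here.

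Claudins, the strand-forming proteins, were dim as a family. Of 23 claudins, 19 lay under the array median in all 4 lines, between 1.93 and 4.33, with a median range over the lines of 0.60 and a largest range of 1.29. Among them were Cldn3, Cldn4 and Cldn7, claudins of many simple epithelia, and Cldn5, the claudin of endothelium. Cldn4 was 3.35 in NHRI-HN1, 2.75 in M1-2, 3.20 in NHRI-HN2 and 2.76 in M2-3. Cldn7 was 2.35, 2.98, 1.95 and 2.59 in the same order. Neither gene separated the lines with keratinocyte markers from NHRI-HN1, and at this level a gene without RNA and a probe set that responds weakly cannot be told apart.

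Cldn8, a claudin best known from the distal nephron, was the only claudin called in either comparison. It was 3.12 in NHRI-HN1 and 2.68 in M1-2, against 7.64 in NHRI-HN2 and 8.19 in M2-3, so both lines of the M1-2 tumor were dim and the groups did not overlap. In the lines of the M1-2 tumor it was lower by 5.02 (± 0.48 standard error, limma adjusted p = 0.041). Against the 3 other lines the difference of NHRI-HN1 was -3.05 (standard error 2.30) and was not called, M1-2 being as low. The call between the tumors ended without the dimmest genes (limma, adjusted p = 0.0505) and without NHRI-HN1 (limma, adjusted p = 0.052).

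Cldn12, an atypical claudin that lacks the usual PDZ-binding tail, was above the median in all lines, at 8.07 in NHRI-HN1, 7.29 in M1-2, 7.74 in NHRI-HN2 and 6.28 in M2-3. Each sphere line was above its parent, by 0.78 in NHRI-HN1 and 1.46 in NHRI-HN2. Cldn1, the claudin without which the mouse epidermal barrier fails, was near the median throughout, at 4.08, 5.14, 4.66 and 4.71 in the same order of lines. Cldn20 was 4.13, 4.35, 5.39 and 3.96, over the median in NHRI-HN2 alone. Limma called none of these 3 genes in either comparison. Over the family, none was called for NHRI-HN1 and none reached an unadjusted p under 0.05, and the medians of 0.04 against the 3 other lines and 0.07 between the tumors were close to those of all genes.

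The Cldn4 promoter is shown as that of a claudin which was dim in all lines. Its window, chr5:134946885-134947184 on the minus strand, holds CACCTG at -14 and, on the opposite strand, at 12.
Cldn4: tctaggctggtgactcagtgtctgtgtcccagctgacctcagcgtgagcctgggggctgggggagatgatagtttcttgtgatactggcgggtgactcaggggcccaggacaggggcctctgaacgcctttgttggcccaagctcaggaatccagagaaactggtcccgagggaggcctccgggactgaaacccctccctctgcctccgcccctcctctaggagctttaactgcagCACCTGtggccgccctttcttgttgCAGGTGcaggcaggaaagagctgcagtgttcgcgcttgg

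**Figure D3:**
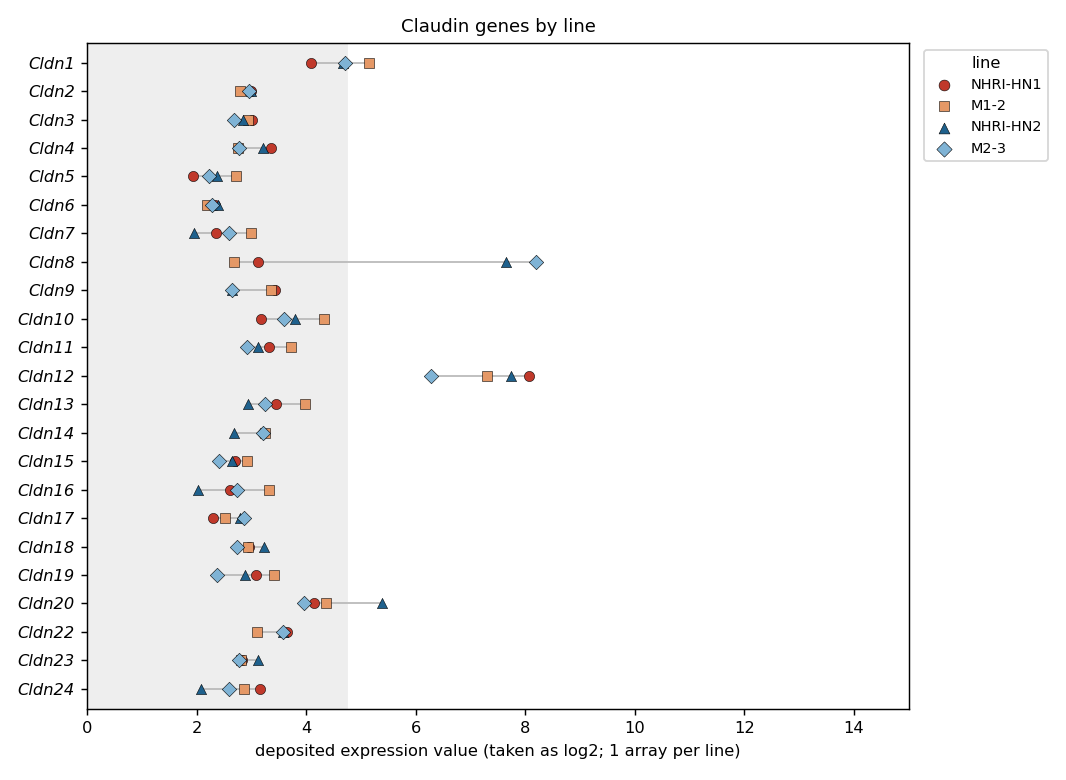
Deposited expression values (x axis, taken as log2 units) of the 23 claudins (y axis), with 1 point for each line; the grey band covers values under the highest array median, 4.75. Cldn8 is above the band in NHRI-HN2 and M2-3 alone, Cldn12 in all 4 lines, and 19 claudins lie within it in every line.

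Among the other membrane proteins of the junction, F11r stood out. It encodes junctional adhesion molecule A, an immunoglobulin-like protein that helps to recruit the Par complex to new contacts. F11r was 3.42 in NHRI-HN1, against 10.14 in M1-2, 11.01 in NHRI-HN2 and 11.46 in M2-3 (mean of these 3 lines 10.87 ± 0.67, SD, n = 3 lines). NHRI-HN1 was dim and differed by -6.72 from its own parent, while the 3 other lines lay within 1.32 of each other. In NHRI-HN1, F11r fell by 7.45 (± 0.79 standard error; limma, adjusted p = 0.045), as 1 of 22 genes called lower among all 19505. The call lay close to the threshold and ended in 5 alternatives, with adjusted p-values from limma of 0.051 without the dimmest genes, 0.053 with a block for tumor, 0.062 without an intensity trend, 0.19 without M2-3 and 0.44 without NHRI-HN2; the difference stayed between -6.72 and -7.81 in all of them and in the rest. Cdh1 moved with it, at the values given above.

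The F11r promoter is printed because F11r was the member called in NHRI-HN1. Its window, chr1:171437311-171437610 on the plus strand, holds 1 CACCTG at -122 and no AACNNGTT.
F11r: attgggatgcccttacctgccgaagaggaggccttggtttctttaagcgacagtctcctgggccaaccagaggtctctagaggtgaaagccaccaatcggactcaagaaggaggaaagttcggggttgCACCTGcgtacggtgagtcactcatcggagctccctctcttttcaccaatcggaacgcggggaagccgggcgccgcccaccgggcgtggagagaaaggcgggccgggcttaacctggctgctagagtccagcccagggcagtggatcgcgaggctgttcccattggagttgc

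The MARVEL genes were dim or not far above the array median in every line. Ocln, which encodes occludin, was 3.46 in NHRI-HN1, 2.88 in M1-2, 3.15 in NHRI-HN2 and 3.28 in M2-3, so it was dim even where Cdh1 and Krt5 were high. Marveld2, encoding the tricellulin of three-cell corners, was 4.73, 4.98, 4.26 and 4.36 in the same order. Marveld3 was 5.57, 4.84, 4.26 and 3.99, with both lines of the M1-2 tumor over the median and both lines of the M2-3 tumor under it; its difference of 1.21 in NHRI-HN1 (standard error 0.59) did not pass (limma, adjusted p = 0.63) and was 0.73 with a block for tumor. F11r was the only one of these 4 genes called in either comparison.

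In the plaque, Tjp1 was higher in the lines of the M1-2 tumor, without passing the test. It encodes ZO-1, the scaffold that binds claudin tails and actin, and it is also found at adherens junctions of cells without tight junctions. Tjp1 was 12.99 in NHRI-HN1 and 12.08 in M1-2, against 11.08 in NHRI-HN2 and 10.39 in M2-3. The order of the lines was that of Zeb1, as it was for Marveld3, and a link to Zeb1 was not tested. Tjp1 was the single member with both lines of the M1-2 tumor at least 1 unit above both lines of the M2-3 tumor, where 3.97% of all genes were. The difference of 1.81 in NHRI-HN1 from the 3 other lines (standard error 0.83) did not pass (limma, adjusted p = 0.61) and was 0.91 with a block for tumor, and Tjp1 was not called between the tumors. Tjp3, the ZO-3 of epithelia, was 3.83, 4.15, 4.40 and 4.32, and Cgn, encoding cingulin, was 3.38, 3.03, 3.74 and 2.81, both dim in all lines.

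The Tjp1 window is given as that of the member highest in the lines of the M1-2 tumor. It spans chr7:65371195-65371494 on the minus strand and holds neither motif.
Tjp1: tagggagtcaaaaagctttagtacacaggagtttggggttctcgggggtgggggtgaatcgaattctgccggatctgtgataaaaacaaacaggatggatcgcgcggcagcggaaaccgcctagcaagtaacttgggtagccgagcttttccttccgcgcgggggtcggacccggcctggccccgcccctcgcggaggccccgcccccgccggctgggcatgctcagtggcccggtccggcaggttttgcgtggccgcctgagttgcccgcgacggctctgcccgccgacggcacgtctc

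Of the polarity genes, 4 of 5 were lower in both lines of the M1-2 tumor than in both lines of the M2-3 tumor by at least 1 unit, against 7.2% of all genes, and none was called. Pard3, the scaffold of the Par complex, was 10.99 in NHRI-HN1 and 10.83 in M1-2, against 12.88 in NHRI-HN2 and 12.87 in M2-3. The 2 lines of each tumor were within 0.16 of each other, and the difference of -1.96 (standard error 0.39) did not pass (limma, adjusted p = 0.15). Crb3, the epithelial Crumbs protein of the apical membrane, was 4.13, 4.06, 5.25 and 5.73 in the same order, dim in the lines of the M1-2 tumor.

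Llgl2 and Patj were graded over the lines, with NHRI-HN1 below M1-2. Llgl2 encodes a basolateral partner of the Scribble module, and it was 4.94 in NHRI-HN1, 7.00 in M1-2, 8.67 in NHRI-HN2 and 9.36 in M2-3. Patj, a scaffold that links Crumbs to the junction, was 5.92 in NHRI-HN1, 7.94 in M1-2, 10.16 in NHRI-HN2 and 9.0 in M2-3. In NHRI-HN1 the differences from the 3 other lines were -3.40 for Llgl2 (standard error 1.10) and -3.11 for Patj (standard error 1.03), which did not pass (limma, adjusted p = 0.44 and 0.45). Between the tumors the difference was -3.04 for Llgl2 (standard error 0.83; limma, adjusted p = 0.21). Without M1-2, Llgl2 was called at a difference of -4.07 (limma, adjusted p = 0.049), while without NHRI-HN1 its difference between the tumors was -2.01 (limma, adjusted p = 0.18). With a block for tumor, the differences in NHRI-HN1 were -2.06 for Llgl2 and -2.02 for Patj. Pard6b, the Par6 form of many epithelia, was 4.46, 4.87, 5.04 and 4.96, near the median in all lines.

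Patj has 3 windows, of which the first, chr4:98395576-98395875 on the plus strand, is shown because it holds CACCTG on the opposite strand at -19, 10 and 38. The third window holds AACNNGTT at -119.
Patj: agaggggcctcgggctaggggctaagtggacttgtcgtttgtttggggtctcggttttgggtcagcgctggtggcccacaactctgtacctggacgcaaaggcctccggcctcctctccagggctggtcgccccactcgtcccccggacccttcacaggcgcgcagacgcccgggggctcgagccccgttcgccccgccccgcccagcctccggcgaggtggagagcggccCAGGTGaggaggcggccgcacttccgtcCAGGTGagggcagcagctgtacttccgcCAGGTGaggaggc

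The sharpest split by tumor was in the epithelial membrane proteins. Epcam, an adhesion molecule of epithelial and carcinoma cells that binds claudins, was 2.84 in NHRI-HN1 and 3.15 in M1-2, against 11 in NHRI-HN2 and 10.78 in M2-3. Rab25, a small GTPase of apical recycling, was 4.28 in NHRI-HN1 and 4.49 in M1-2, against 11.89 in NHRI-HN2 and 12.73 in M2-3. St14, which encodes matriptase, a membrane serine protease needed for the epidermal barrier, was 2.74 and 2.55 against 8.89 and 9.09 in these lines. For all 3 genes both lines of the M1-2 tumor were dim, the groups were over 6 units apart at their closest, and the sphere line differed little from its parent.

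In the lines of the M1-2 tumor Epcam was lower by 7.89 (± 0.47 standard error, limma adjusted p = 0.023). Rab25 fell by 7.93 (standard error 0.52) and St14 fell by 6.35 (standard error 0.45), with adjusted p = 0.024 from limma for each. Against the 3 other lines none of the 3 was called in NHRI-HN1, with differences of -5.47, -5.42 and -4.10, since M1-2 was as low as NHRI-HN1. These 3 calls and that of Cldn8 ended without NHRI-HN2 (limma, adjusted p = 0.19 to 0.20) and without M2-3 (limma, adjusted p = 0.35), where 1 array stands for a tumor and no gene at all was called, while the differences of the 4 genes stayed between -4.74 and -8.34.

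The windows of Epcam and Rab25 are printed as those of the called members for which a promoter was found; St14 and Cldn8 had none. Epcam lies on chr17:87635729-87636028 on the plus strand, with CACCTG at -187 and, on the opposite strand, at -19. The Rab25 window, chr3:88548230-88548529 on the minus strand, holds AACNNGTT at -102 and CACCTG at -64 and, on the opposite strand, at -53. Of the 46 member windows it was the one with both motifs.
Epcam: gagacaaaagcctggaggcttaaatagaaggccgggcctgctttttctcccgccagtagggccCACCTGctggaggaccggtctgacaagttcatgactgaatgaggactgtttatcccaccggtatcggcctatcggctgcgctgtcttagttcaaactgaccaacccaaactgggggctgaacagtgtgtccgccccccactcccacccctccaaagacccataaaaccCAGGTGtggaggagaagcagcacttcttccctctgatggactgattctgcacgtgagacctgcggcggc
Rab25: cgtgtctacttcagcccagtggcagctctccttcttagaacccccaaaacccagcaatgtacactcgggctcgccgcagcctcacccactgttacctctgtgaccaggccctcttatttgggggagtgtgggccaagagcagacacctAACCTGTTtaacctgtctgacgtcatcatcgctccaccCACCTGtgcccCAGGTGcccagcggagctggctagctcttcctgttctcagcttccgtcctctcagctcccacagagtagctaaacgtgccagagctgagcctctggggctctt

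Mal2, a protein of transcytosis to the apical membrane, was dim in NHRI-HN1 alone, as was F11r, but spread widely over the 3 other lines. It was 2.43 in NHRI-HN1, 11.12 in M1-2, 6.84 in NHRI-HN2 and 5.36 in M2-3, so the line with the highest value and the line with the lowest were parent and offspring. Its difference in NHRI-HN1 was -5.34 (standard error 2.29; limma, adjusted p = 0.58) and -8.69 with a block for tumor (limma, adjusted p = 0.0605), and between the tumors it was not called.

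**Figure D4:**
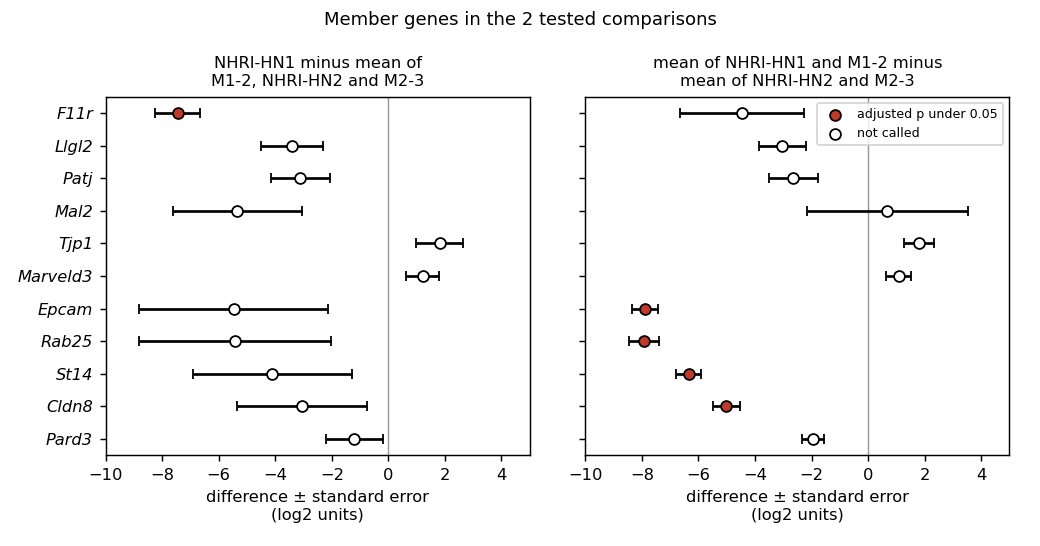
Differences in log2 units (x axes) with standard errors from limma for the members with the lowest p in each comparison (y axis), NHRI-HN1 minus the mean of the 3 other lines on the left and the lines of the M1-2 tumor minus those of the M2-3 tumor on the right. Filled points passed an adjusted p under 0.05, which were F11r on the left and Epcam, Rab25, St14 and Cldn8 on the right.

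Seen by size, NHRI-HN1 lay at least 1 unit below all 3 other lines in 4 of 39 members (F11r, Mal2, Llgl2 and Patj), against 4.99% of all genes, and above them in none, against 5.89%. Both lines of the M1-2 tumor lay at least 1 unit below both lines of the M2-3 tumor in 8 members, or 20.5%, against 7.2% of all genes. These were Epcam, Rab25, St14, Cldn8, Pard3, Llgl2, Patj and Crb3. The 2 sets share Llgl2 and Patj, and the 2 comparisons share all 4 arrays.

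Each sphere line was also set against its own parent, which is a comparison of 2 arrays with no replicate and no test. NHRI-HN1 was at least 1 unit below M1-2 in 6 members (15.4%), against 12.2% of all genes, and above it in none, against 12.1%. These were Mal2 by -8.69, F11r by -6.72, Llgl2 by -2.06, Patj by -2.02, and the dim or nearly dim Cldn10 by -1.16 and Cldn1 by -1.06. NHRI-HN2 was at least 1 unit above M2-3 in 4 members (10.3%), Mal2 by 1.48, Cldn12 by 1.46, Cldn20 by 1.43 and Patj by 1.16, against 6.52% of all genes, and below it in none, against 5.69%. The large differences were those of F11r and Mal2 in the first step. Epcam, Rab25, St14 and Cldn8 differed by at most 0.44 between NHRI-HN1 and M1-2 and by at most 0.84 between NHRI-HN2 and M2-3.

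**Figure D5:**
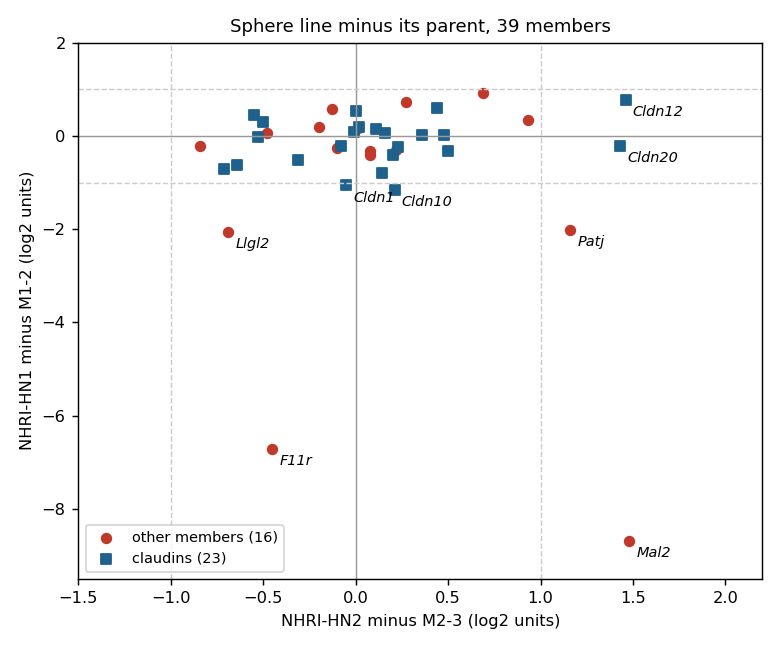
Difference of each sphere line from its parent in log2 units for the 39 members, NHRI-HN1 minus M1-2 on the y axis and NHRI-HN2 minus M2-3 on the x axis, with 1 array per line; dashed lines mark 1 unit. Mal2 and F11r lie at -8.69 and -6.72 on the y axis, and no member is beyond 1.48 on the x axis.

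Other genes of the junction and of polarity were read from a list of 50, of which 47 were measured. Ildr2, encoding angulin-3, rose in NHRI-HN1, and limma called none lower (an unadjusted p under 0.05 was reached by 4 higher and 4 lower genes). Ildr2 was 8.75 in NHRI-HN1, against 2.53 in M1-2, 2.17 in NHRI-HN2 and 2.40 in M2-3, a difference of 6.38 (standard error 0.42, adjusted p = 0.034 from limma). Over all genes 0.508% were called higher and 0.113% lower in this comparison. Between the tumors 1 gene of the list was called higher in the lines of the M1-2 tumor and 3 lower, against 0.123% and 0.446% of all genes.

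The 3 genes called lower in the lines of the M1-2 tumor were partners of members described above. Spint2 and Spint1 encode the inhibitors of matriptase, the product of St14. Spint2 was 3.71 in NHRI-HN1 and 3.64 in M1-2, against 11.16 in NHRI-HN2 and 11.43 in M2-3 (limma, adjusted p = 0.023). Spint1 was 4.01 and 3.55 against 8.52 and 8.69 in these lines (limma, adjusted p = 0.042). Protease and inhibitors were thus dim in the same 2 lines. Lsr encodes angulin-1, which brings tricellulin to three-cell corners, and it was 2.92 in NHRI-HN1 and 3.39 in M1-2, against 8.94 in NHRI-HN2 and 8.75 in M2-3 (limma, adjusted p = 0.030). Amot, encoding angiomotin, which binds Patj, was the gene called higher, at 9.71 and 9.03 against 4.72 and 4.26 (limma, adjusted p = 0.049).

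Further relatives of members had large values in NHRI-HN1, and others low ones, without passing the test against the 3 other lines. Jam3, a paralog of F11r, was 10.67 in NHRI-HN1, 6.78 in M1-2, 3.58 in NHRI-HN2 and 3.37 in M2-3 (limma, adjusted p = 0.3). Jam2 was 10.56, 9.97, 6.83 and 3.04 in the same order (limma, adjusted p = 0.71). Among the 3 Jam genes, F11r was lowest in NHRI-HN1 and Jam3 was highest there. Jam2 was only 0.59 higher in NHRI-HN1 than in M1-2, and was higher in both of these lines than in NHRI-HN2 and M2-3. Cgnl1, the paralog of the dim Cgn, was 9.95, 5.23, 3.84 and 3.64 (limma, adjusted p = 0.097). Bves, a junctional membrane protein of epithelium and striated muscle, was 13.72, 8.86, 9.19 and 8.83. Other genes of the list were lower in NHRI-HN1, also without passing. Pard6g, a relative of Pard6b, was 7.9 in NHRI-HN1, 10.7 in M1-2, 10.64 in NHRI-HN2 and 11.49 in M2-3. Slc9a3r1 was 7.99, 10.81, 10.82 and 10.87 in the same order. Ezr, which encodes ezrin, the link from apical membrane to actin, was 8.13 in NHRI-HN1 and 5.97 in M1-2, against 13.62 in NHRI-HN2 and 13.75 in M2-3, and was not called. Within the list, NHRI-HN1 lay at least 1 unit below all 3 other lines in 6 of 47 genes, against 4.99% of all genes, and above them in 5, against 5.89%. Both lines of the M1-2 tumor lay at least 1 unit below both lines of the M2-3 tumor in 8, against 7.2% of all genes, and above them in 5, against 3.97%.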

How the data were processed

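RNA of NHRI-HN1, M1-2, NHRI-HN2 and M2-3 was measured on 1 array each. The deposited log2 values, 1 for each of 22206 probe sets, were made by the authors with Partek Genomics Suite version 7; the log base is taken from their range, and the sources used here do not state the background correction, summarization or normalization. The platform annotation gave 19572 probe sets 1 gene and left 2634 unnamed. Values of genes with several probe sets (55 genes) were averaged, which left 19505 genes. Differences were fitted with limma 3.58.1 in R 4.3.3, with an intensity trend and 2 residual degrees of freedom before limma shared error between genes. P-values were adjusted over all named genes by the Benjamini-Hochberg method. The code was tested on simulated data. The number of arrays limits the precision, and depth does not apply.

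Members and lists were chosen with earlier results of these data known. Every member is accounted for, and a difference with its error is given for the members called and for those of lowest p, up to 6 in each comparison. Promoter windows are those of members with a large range over the lines, with Cldn4 and Tjp1 for contrast; 8 members had no window and are named only: Cldn8, Cldn9, Cldn13, Cldn23, Llgl2, Mal2, Marveld3 and St14. Alternatives were quantile normalization, leaving out genes under the 25th percentile of mean value, no intensity trend, the brightest probe set of a gene, a block for tumor, the Cldn34 copies as members, members dim in all lines left out of the sphere counts, and each line left out in turn.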

Additional observations from a re-analysis of the deposited data

Results flagged for a closer look

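Patj and Mal2 are the members for which the sphere line moved from its parent in opposite directions in the 2 tumors by at least 1 unit each way. Patj was -2.02 in NHRI-HN1 relative to M1-2 and 1.16 in NHRI-HN2 relative to M2-3, so the steps differed by -3.18. Mal2 was -8.69 in NHRI-HN1 relative to M1-2 and 1.48 in NHRI-HN2 relative to M2-3, so the steps differed by -10.17. With 1 array per line, neither difference was tested.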

How the results depend on the processing

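With 1 array per line, the error holds differences between lines and not between repeat cultures, and at 2 residual degrees of freedom the calls rest on few values. In NHRI-HN1 against the 3 other lines, 1 member (F11r) was called, and 0 with a block for tumor, 0 without an intensity trend and 0 when the dimmest genes were left out; leaving out 1 line gave 0 to 6, with 6 without M1-2 (Cldn8, F11r, Llgl2, Epcam, St14 and Rab25) and 0 without M2-3 or without NHRI-HN2. Over all genes, 121 were called, against 0 without an intensity trend (1947 at an unadjusted p under 0.05), 0 with the block (2708), 0 without M2-3 (1214), 0 without NHRI-HN2 (993) and 707 without M1-2, all by limma. The median difference of the members, -0.08, was -0.62 without the dimmest genes, which left 24 members, and -0.21 with the block; without 1 line it was -0.11 to 0.00. Between the tumors, 4 members were called, and 0 to 6 without 1 line: 6 without M1-2, 3 without NHRI-HN1, 0 without NHRI-HN2 and 0 without M2-3. Over all genes, 111 were called, against 67 without the dimmest genes, 184 without NHRI-HN1, 707 without M1-2, 0 without NHRI-HN2 (1844 at an unadjusted p under 0.05) and 0 without M2-3 (1203). The median of -0.05 was -0.27 without the dimmest genes and -0.13 to 0.08 without 1 line. Without M1-2 the 2 comparisons are the same fit. Among the members given with a test, 79 repeats of a result kept direction and side of the threshold, 15 lost the call, 2 gained it, and none reversed. Quantile normalization moved the median of all genes by -0.024 and -0.037. The counts of members that differed between sphere line and parent stayed within 1.5 times under each alternative.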

Other observations

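The Cldn34 copies, claudin genes whose symbols carry a further letter, were not counted among the members. Of 8 such copies, 7 were dim in all lines, with values of 2.00 to 3.75. Cldn34c1 was the exception, at 9.11 in NHRI-HN1 and 8.92 in M1-2, against 7.44 in NHRI-HN2 and 7.62 in M2-3, so that, as for Tjp1, both lines of the M1-2 tumor were above both lines of the M2-3 tumor. Its difference of 1.48 between the tumors did not pass (limma, adjusted p = 0.23). Cldn34c1 was named after its values were seen.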
